A study of Homo sapiens with 2 samples.

Results

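Tag clusters that held 4 or more crosslink sites of hnRNPM were described in HMLE cells. They were chosen by one count: the number of listed sites that carried the same cluster name. This gave 1096 of the 40129 tag clusters with a site (2.73%), and 5216 of the 54373 sites (9.59%). The sites came from iCLIP of wild-type HMLE cells given DMSO, crosslinked with UV and precipitated with an anti-hnRNPM antibody. HMLE is an immortalised human breast epithelial line. The 2 libraries, labelled as biological replicates, formed 1 group, and the list held 1 value per site for both. The spread between replicates and the depth of each library are therefore unknown here, no other condition was measured, and no test was made.

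hnRNPM belongs to the heterogeneous nuclear ribonucleoproteins, abundant nuclear proteins that coat new transcripts and influence splicing. It recognises GU-rich stretches of RNA through RNA recognition motifs, and much of its binding is known to fall in introns. In iCLIP, reverse transcriptase tends to stop 1 base short of the crosslinked base, so that a pile of stops marks a contact. A tag cluster is read here as a stretch of one strand joined by overlapping reads, so that a cluster with several sites is a stretch of RNA with several separate piles. Each site was an interval of 21 nt with a height, read as its number of stops. PH0, which had 1 value per cluster, was read as the height expected from the level of reads in that cluster. The list does not define either. Positions are 1-based on GRCh37. Genes, exons, introns and sequence at the sites were not analysed here, because the annotation at hand was of another build. Heights were not set against RNA levels, so a taller site cannot be read as a tighter one.

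Most of the clusters were near the limit of the rule. There were 661 clusters of 4 sites, 236 of 5, 95 of 6, 55 of 7, 20 of 8, 18 of 9 and 11 of 10 to 12. Just outside the limit lay 1869 clusters of 3 sites, and 30778 clusters had 1 site. The members lay on all 23 chromosomes of the list, 551 of them on plus and 545 on minus. Together they held 16.0% of the summed height of the list, and 15.0% of the rest when the cluster of highest PH0 was left out. No site of another cluster of the same strand lay inside the span of any of them, nor of clusters of 2 or 3 sites. This follows if a cluster is 1 joined stretch of a strand.

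The clusters were short stretches of RNA. Measured from the first to the last site, the median span was 1525 nt, with quartiles of 1003 and 2324 nt and a range of 111 to 14493 nt. Clusters with more sites were longer, from a median span of 778 nt for 3 sites and 1231 nt for 4 to 2650 nt for 7 and 4361 nt for 10 to 12. The median number of sites per kb of span was 3.25 in clusters of 4 and 2.29 in those of 10 to 12. Part of this fall follows from the measure, since a span holds 1 gap fewer than it has sites. The median gap did not widen steadily: it was 368 nt at 4 sites, 360.5 nt at 7, 442 nt at 8 and 426 nt at 10 to 12. As a description over the 1096 clusters, which share their libraries, Spearman's rho of span with number of sites was 0.498. A span is made up of the gaps of its cluster, so more sites give a longer span by construction unless gaps shorten.

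**Figure D1:**
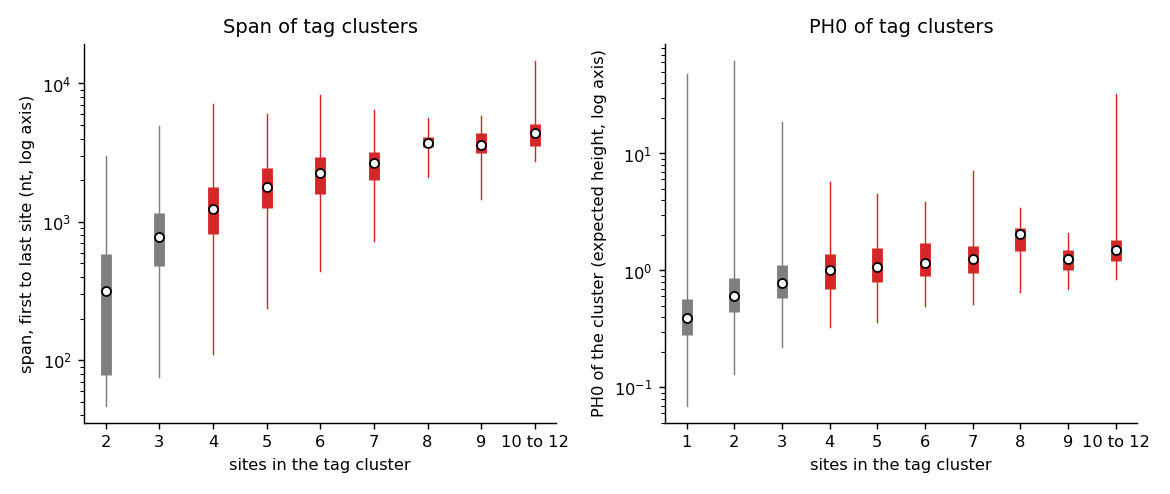
Span in nt (left, clusters of 2 or more sites) and PH0 (right) by the number of sites in the tag cluster, both on log axes. Dots are medians, thick bars run between the quartiles and thin lines from the lowest to the highest cluster; red marks clusters of 4 or more sites, whose median span rose from 1231 nt at 4 sites to 4361 nt at 10 to 12.

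The longest cluster stood far from the others. It lay on chromosome 11 (plus strand, 65192097 to 65206589), spanned 14493 nt and held 12 sites. The second, on chromosome 11 (plus strand, 35211939 to 35220214), spanned 8276 nt with 6 sites. The third, on chromosome 21 (plus strand, 35470971 to 35478027), spanned 7057 nt with 4 sites, and it included the largest gap of any member, 4654 nt. The next was on chromosome 10 (minus strand, 47141178 to 47147578), with 7 sites over 6401 nt. The fifth was on chromosome 16 (plus strand, 81494490 to 81500569), with 12 sites over 6080 nt.

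At the other end, 5 clusters of 4 sites were packed so closely that every gap was under 60 nt. They lay on chromosome 15 (57302926 to 57303036, plus strand), chromosome 16 (82910977 to 82911100, plus), chromosome 1 (171521878 to 171522021, plus), chromosome 3 (196895144 to 196895288, minus) and chromosome 12 (39185507 to 39185651, minus). Their spans were 111, 124, 144, 145 and 145 nt. Read from upstream to downstream, the heights were 13, 9, 17 and 10 on chromosome 15, and 15, 11, 10 and 9 on chromosome 16. They were 20, 20, 35 and 14 on chromosome 1, 22, 13, 11 and 11 on chromosome 3, and 9, 11, 10 and 10 on chromosome 12. The chromosome 1 cluster held the tallest of these sites, and in none of the 5 was the last site the tallest. With equal positions the last of 4 sites would be the tallest in 25%, so 5 clusters say little about order. These clusters are each a single small patch of RNA rather than a string of patches.

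Such packing was the exception, and spacing inside a member was usually uneven. The median gap between the starts of adjacent sites was 377 nt (quartiles 147 and 665 nt, 4120 gaps). In the median cluster the longest gap was 10.1 times the shortest and took up 51.7% of the summed gaps. Only 97 clusters had all their gaps within a factor of 2. When sites under 60 nt apart were counted as one group, 711 clusters still had 4 or more groups, 303 had 3, 77 had 2 and 5 had 1.

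The gaps came in a close and a distant range. Gaps of 26 to 59 nt made up 19.6% of the 4120 gaps, those of 60 to 99 nt only 2.31%, and those of 400 to 999 nt 38.2%. Per nt of gap there were 47.8 pairs at 26 to 29 nt, 2.00 at 80 to 99 nt and 5.14 at 250 to 299 nt. The same low between a close and a distant range was present in smaller clusters, where close gaps took 25.4% of the pairs in clusters of 2 sites and 22.0% in clusters of 3. At least 1 close gap occurred in 609 members (55.6%). The share did not rise steadily with the number of sites: it was 51.7% for 4 sites, 57.6% for 5, 57.9% for 6, 81.8% for 7, 45.0% for 8, 88.9% for 9 and 54.5% for 10 to 12, the last 3 over 20 clusters or fewer. The smallest gap was 26 or 27 nt in every size of cluster, and whether the site caller set it was not tested.

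**Figure D2:**
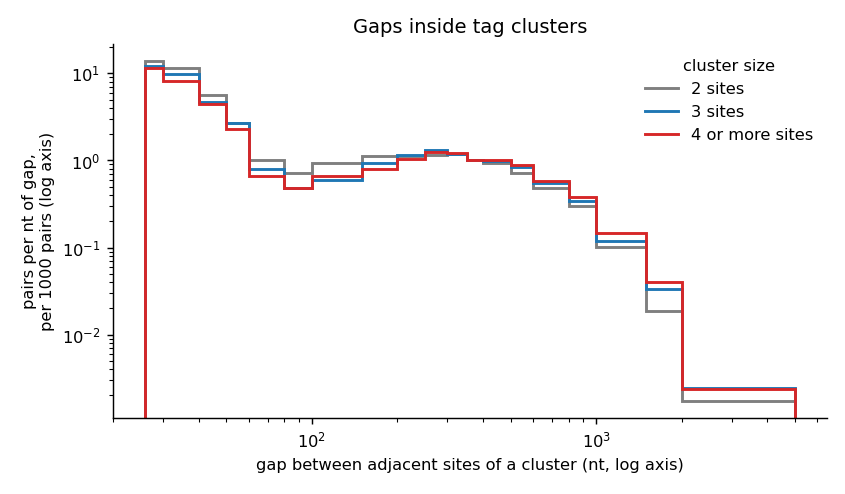
Number of adjacent pairs per nt of gap, per 1000 pairs of the class, against the gap in nt, on log axes, for clusters of 2, 3 and 4 or more sites. In all 3 classes the density is highest at 26 to 29 nt, lowest at 80 to 99 nt among gaps under 400 nt and higher again near 300 nt.

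Sites of members were taller than single sites, as were the levels of their clusters. The median height was 19 (quartiles 13 and 29) for sites of members and 10 (8 and 14) for clusters of 1 site. Median PH0 was 1.06 (0.76 and 1.51) in members and 0.39 (0.28 and 0.57) in clusters of 1 site, with 0.78 in clusters of 3 and 1.00 in clusters of 4. No member had a PH0 under 0.33, while PH0 in clusters of 1 site went down to 0.07. Height, PH0 and the number of sites come from the same reads, so these values are a description of the members and no support for what sets them apart.

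The sites of 1 member differed in their height relative to PH0. The median ratio of height to PH0 was 29.6 for the tallest site of a member, 12.3 for its lowest site and 25.9 for a single site. The first 2 are the highest and lowest of several sites, so they lie apart in part by construction. Over all sites of members it was 17.8, lower than for single sites, with 21.7 in clusters of 2 sites and 19.8 in clusters of 3. Among single sites, too, the ratio was lower at a higher level. It was 23.2 within 1 kb of a member (median PH0 of 0.60) and 26.3 beyond 200 kb (0.37). The ratios of members and single sites were not compared at equal PH0. The tallest site was at the median 2.36 times the lowest of its cluster, and it held 33.3% of the cluster's summed height.

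The share of clusters that were members was larger at higher PH0 up to a value of 4, but not beyond. Of the 5404 clusters with a PH0 under 0.25, none was a member. The share of members was 0.249% at a PH0 of 0.25 to under 0.5, then 3.59% up to 1, 12.7% up to 2 and 18.4% up to 4. It was 8.77% (5 of 57) at 4 and above, where 37 clusters held 1 site. The highest PH0 of a 1-site cluster was 47.91, on chromosome 1 (minus strand, 91852849 to 91852869), with a height of 399. That cluster was picked out after its values were seen. Among members, rho between PH0 and the number of sites was 0.199, given as a description over 1096 clusters.

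Even within one class of PH0 the tallest site of a member exceeded a single site, which follows in part from taking the highest of several values. At a PH0 of 1 to under 2, the median was 40 for the tallest site of the 479 members, 14 for their lowest site and 26 for the 1825 clusters of 1 site. At 0.5 to under 1 the 3 medians were 22, 10 and 14. The median of single sites thus lay between those of the lowest and the tallest sites of members in both classes.

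The 5 members of highest PH0 differed in how their sites were ordered. After the 12-site cluster of chromosome 11, with a PH0 of 32.16, came the 7-site cluster of chromosome 10, with 7.09. Its heights, from upstream to downstream, were 83, 29, 94, 96, 216, 62 and 249, so the tallest was the last. On chromosome 12 (plus strand, 66232458 to 66236447; PH0 of 5.75) the heights were 30, 127, 164 and 41. On chromosome 15 (minus strand, 60661117 to 60663363; PH0 of 4.49) they were 95, 240, 94, 81 and 99, with 1 site well above the other four. On chromosome 8 (plus strand, 128914937 to 128918994; PH0 of 4.12) they were 78, 82, 25 and 22, so the upstream pair was the taller one.

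The members of lowest PH0 were low throughout. On chromosome 11 from 12208816 to 12209216 (plus strand, PH0 of 0.33) the heights were 13, 8, 17 and 7. On chromosome 3 from 158381592 to 158382906 (plus, 0.33) they rose steadily downstream as 7, 9, 10 and 12, and from 187983013 to 187983413 (plus, 0.33) they fell as 11, 10, 8 and 7. The 5 sites on chromosome 8 from 17857005 to 17859317 (plus, 0.36) had heights of 12, 10, 8, 10 and 13. Those on chromosome 17 from 17123781 to 17124562 (minus, 0.36) had 14, 7, 7 and 8. Opposite orders thus occurred side by side among clusters of the same level.

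The clusters with the most sites showed no common course of height. In the 12-site cluster of chromosome 11 the heights ran 1503, 1043, 195, 244, 422, 1432, 645, 1969, 149, 371, 563 and 845. The series has peaks at the 5' end, in the middle and again towards the 3' end, and its largest gap, 4007 nt, followed the tallest site. The 12-site cluster of chromosome 16 had a PH0 of only 0.85 and heights of 24, 11, 26, 35, 19, 32, 12, 22, 16, 14, 17 and 11. Its 3' sites were thus among its lowest. The same number of sites occurred at levels that differed by 38-fold in PH0.

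In the 11-site cluster of chromosome 7, from 35856354 to 35860583 on the plus strand (PH0 of 1.84), the heights were 19, 23, 17, 31, 15, 33, 76, 30, 32, 28 and 26. A single site stood out here, and 4 of its 10 gaps were under 60 nt. The 10-site cluster of chromosome 6 from 4798086 to 4802912 (plus, 1.94) had heights of 32, 49, 54, 30, 21, 43, 36, 24, 20 and 41, with no gap under 60 nt. On chromosome 4 (minus strand, 187619144 to 187623682; PH0 of 1.41) they were 29, 29, 13, 21, 50, 38, 36, 31, 18 and 58. The tallest site was thus the seventh, the third and the last of these 3 clusters.

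The remaining 5 of these 10 clusters had 10 sites each, and an 11th cluster, also of 10 sites, was left out for its lower summed height. On chromosome 5 from 112906750 to 112909515 (plus, PH0 of 1.78), the heights were 24, 14, 39, 15, 28, 31, 50, 28, 18 and 21, and no gap was over 600 nt. Farther along, from 134259319 to 134263679 (plus, 1.32), they were 19, 47, 56, 26, 14, 17, 19, 13, 25 and 18. Both had the tallest site away from their ends. The cluster of chromosome 6 from 73611031 to 73613893 (plus, 1.66) had 15, 23, 14, 29, 25, 48, 37, 25, 18 and 34. That of chromosome 2 from 133256550 to 133260708 (plus, 1.49) had 25, 23, 17, 29, 19, 29, 13, 42, 32 and 37. That of chromosome 18 from 33165381 to 33170811 (plus, 0.99) had 21, 23, 13, 19, 15, 12, 16, 11, 40 and 12. In the last, a site of height 40 stood among sites of at most 23.

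**Figure D3:**
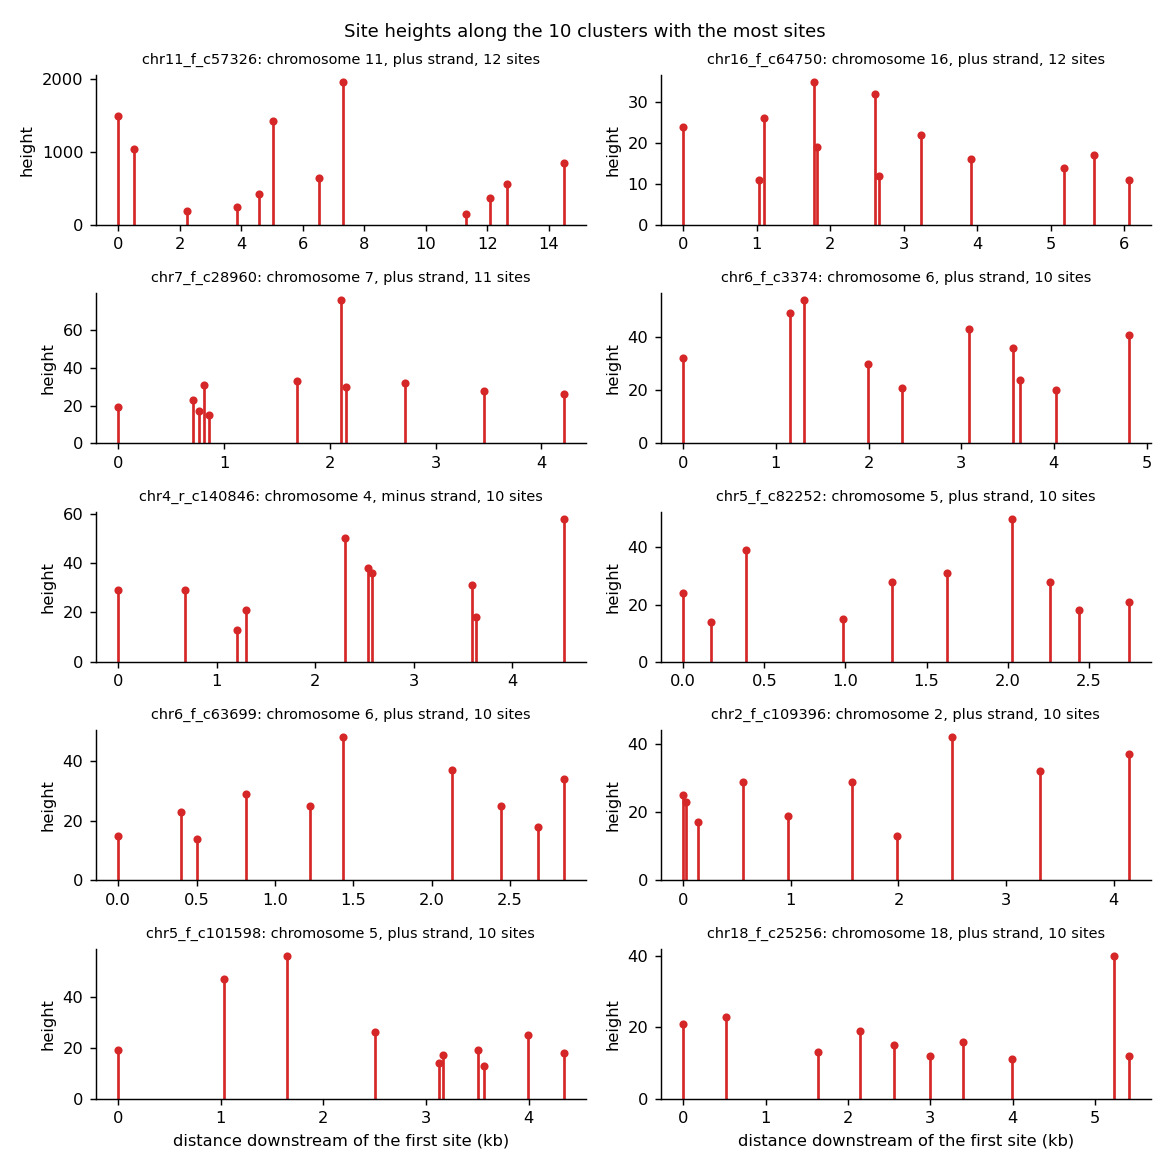
Heights of the sites (vertical lines with dots, linear axes from 0, a different scale in each panel) against their distance in kb downstream of the first site, for the 10 clusters with the most sites (ties by summed height). The first panel reaches 1969, whereas no site of the others exceeds 76, and the tallest site is an inner one in 9 of the 10 panels. Most would be inner in any case: equal positions would give each end 11.3% in clusters of 8 to 12 sites.

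Over all members, heights had little order along the strand. The median height at each position of a 4-site cluster was 18, 17, 18 and 17 from upstream to downstream (661 clusters), and in 5-site clusters 18.5, 20, 18, 20 and 17 (236). In 6-site clusters the medians declined from 23, 22, 21, 21 and 18 to 17 (95 clusters), while the quartiles of the first site, 16 and 33.5, overlapped those of the last, 13.5 and 27. Heights that fell at every step were seen in 31 members, and heights that rose at every step in 21.

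The tallest site was slightly more often the first than the last. Of the 1035 members with 1 tallest site it was the most upstream in 254 (24.5%, 95% Wilson interval 22.0 to 27.3) and the most downstream in 206 (19.9%, 17.6 to 22.4). If every position were the tallest equally often, each end would have it in 22.0%. These intervals, like those that follow, cover counting error only, over clusters or pairs that share libraries. In clusters of 8 to 12 sites the tallest was the first in 2 of 47 and the last in 1, where equal positions would give 11.3% for each end. With sites under 60 nt apart joined as their tallest, the first was the tallest in 26.7% and the last in 25.7%, against 27.3% for equal positions. The lead of the first site over the last was thus reduced from 4.64 to 0.964 percentage points over all members, but not alike in each size. In 6-site clusters the tallest was the first in 26 and the last in 11 of 93 before joining, and in 27 and 13 of 94 after it. In 5-site clusters the 2 ends had it in 44 each of 224 before joining, and after it the first had it in 48 and the last in 58.

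Order was present inside the close pairs. Of 745 adjacent pairs of members 26 to 59 nt apart and of unequal height, 491 had the upstream site taller (65.9%, 62.4 to 69.2). The share was 64.6% (62.1 to 67.0) in clusters of 2 sites and 66.8% (63.3 to 70.1) in clusters of 3, so that the intervals of all 3 sizes overlapped. At 60 to 99 nt it was 60.4% (50.2 to 69.9) in members, at 100 to 199 nt 142 of 284 pairs and at 200 to 399 nt 45.1% (41.8 to 48.4). Since the excess at close pairs is known for the whole list, of which members are a part, these shares add only how close the sizes of cluster were to each other.

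**Figure D4:**
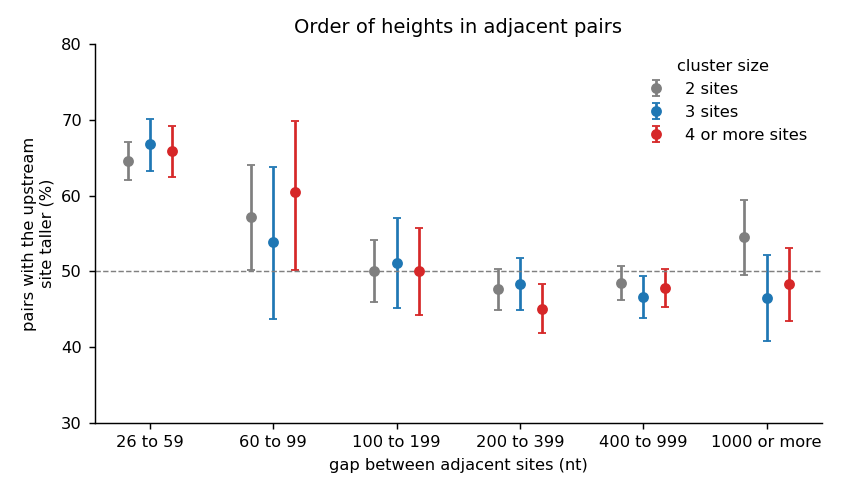
Share of adjacent pairs of unequal height whose upstream site was the taller one (in percent), by the gap between them in nt, for clusters of 2, 3 and 4 or more sites; bars are 95% Wilson intervals and the dashed line marks 50%. All 3 classes lie between 64 and 67% at 26 to 59 nt, and members fall to 45.1% at 200 to 399 nt.

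The share below 50% at longer gaps belonged to pairs that began at the end of a close group. Of the pairs of members at least 200 nt apart, 2039 had neither site within 60 nt of a neighbour, and the upstream site was the taller in 49.6% of them (47.4 to 51.8). Where the downstream site was in a close group and the upstream one was not, the share was 50.9% (45.6 to 56.2, 336 pairs). Where the upstream site was the last of a close group and the downstream site was in none, it was 31.8% (27.2 to 36.9, 352 pairs). Clusters of 3 sites gave 48.7% (46.4 to 51.0), 51.3% (45.7 to 57.0) and 32.7% (27.4 to 38.5) in the same order.

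The last site of a close group was mostly the low one, and the first site was close in height to those that stood apart. In members that held both kinds of site, the median height was 19 (quartiles 14 and 30) for 1442 sites with no neighbour under 60 nt away. It was 19 (13 and 28) for the 632 first sites of close groups and 16 (12 and 21) for their 632 last sites. The 70 sites in the middle of such groups had a median of 14.5. The median ratio to PH0 was 18.5 for sites apart, 18.4 for first sites and 15.4 for last sites. In clusters of 3 sites with both kinds, the median heights were 14, 15 and 12.

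Close groups of more than 2 sites were few. Members held 653 groups of 2 sites, 60 of 3 and 11 of 4. Of the 57 groups of 3 with 1 tallest site, it was the first in 27 and the last in 15, and heights fell at each step in 10 of the 60 and rose in 5. Of the 10 groups of 4 with 1 tallest site, it was the first in 4 and the last in 1.

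Neighbouring sites of a member differed moderately in height. The median ratio of the taller to the lower of 2 adjacent sites was 1.45 in members, 1.38 in clusters of 3 sites and 1.36 in clusters of 2. In members it was 1.37 at 26 to 59 nt and 1.5 at 400 to 999 nt. Equal heights were found in 200 of the 4120 adjacent pairs of members, 278 of 3738 in clusters of 3 sites and 632 of 6386 in clusters of 2. Heights are whole numbers, with a median of 19 in members, 15 in clusters of 3 sites and 12 in clusters of 2. Ties and ratios were not compared at equal height.

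Most members had gaps in the running numbers of their sites. The running numbers in the site names rose with position on each strand, and numbers were missing inside 1044 of the 1096 clusters. Of the 12019 numbers between the first and the last site of members, 3024 were listed (25.2%). The share was 22.8% in clusters of 3 sites, and in clusters of 2 sites it was 0 of 8382 by construction. These shares leave out the listed site at each end of a cluster, so they depend on its number of sites. They cannot be set against the 24.2% listed over all numbers, which counts every site. In the 12-site cluster of chromosome 11 there were 103 missing, compared with 15 in the 12-site cluster of chromosome 16. What the missing numbers stood for is not stated, and reading them as candidates is an assumption.

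Members lay in surroundings with more sites than single-site clusters did. Within 50 kb on the same strand, the median number of sites of other clusters was 16 (quartiles 8 and 27) for members and 10 (4 and 18) for clusters of 1 site. Another member lay within 50 kb on the strand for 41.0% of members and for 19.9% of 1-site clusters. The nearest site of another cluster was at a median of 1546 nt from a member and 1933 nt from a 1-site cluster. It was within 1 kb for 29.7% of members and 28.5% of 1-site clusters, so members and single sites were more alike at this short range. No other site lay within 50 kb for 32 members (2.92%) and 1581 1-site clusters (5.14%). In clusters of 2 and 3 sites this share was lower still, at 2.07% and 1.77%. Their nearest site was within 1 kb for 30.4% and 31.5%, and their median number within 50 kb was 13 and 14. A member lay within 50 kb of 28.1% and 32.7% of them. Surroundings with more sites than those of 1-site clusters were thus not particular to members.

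Single sites close to a member had a higher level than those far away. The median PH0 of 1-site clusters was 0.60 within 1 kb of a member (244 clusters), 0.52 at 1 to 5 kb, 0.48 at 5 to 20 kb, 0.44 at 20 to 50 kb and 0.37 beyond 200 kb (20915). Their median height declined alongside from 14 to 9, while the ratio of height to PH0 went from 23.2 to 26.3.

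Joining members of 1 strand at most 50 kb apart gave 817 loci. Of these, 647 held 1 member, 114 held 2 and 56 held 3 or more, with 9 at most. The 56 held 221 members (20.2%). Members of these loci had a median PH0 of 1.24 and a mean of 4.90 sites, and members alone in their locus had 0.99 and 4.71. Neighbouring members of a locus were a median of 13.6 kb apart. Of 276 neighbouring pairs of unequal PH0, the upstream cluster had the higher value in 150 (54.3%), so the level showed no steady decline along the strand.

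The locus with the most members lay on chromosome 8 (minus strand, 119002562 to 119121458). It held 9 of them with 56 of the 100 sites on that strand there, and their PH0 ran from 0.98 to 3.41. Its members covered 26.6% of its length, and their tallest site reached 203. A site of a smaller cluster between them was taller, with a height of 414. The second, on chromosome 15 (plus strand, 99224607 to 99351685), had 8 members with PH0 of 0.84 to 2.48 and 41 of 92 sites. The third had the most of its length in members: on chromosome 2 (plus strand, 153209826 to 153272040), 8 members covered 28.6% of 62.2 kb and held 44 of 65 sites. Their tallest site was only 51.

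A further 7 members, with PH0 of 0.68 to 1.36, lay on chromosome 16 (minus strand, 89416168 to 89549660) and held 29 of 84 sites, the smallest share of the 10 loci. Loci of 6 members lay on chromosome 8 (minus strand, 125638007 to 125701003), on chromosome 6 (plus strand, 4793283 to 4872329), on chromosome 8 (minus strand, 131286746 to 131363453) and on chromosome 1 (plus strand, 178154192 to 178217649). In these 4, members held 30 of 43, 34 of 60, 37 of 60 and 28 of 43 sites. The last 2 of the 10 had 5 members each. On chromosome 12 (plus strand, 66224964 to 66311956), PH0 ran from 1.11 to 5.75, the widest range of the 10. On chromosome 8 (minus strand, 141890846 to 141973762), it ran only from 1.14 to 1.68. None of the 10 loci held a site of the opposite strand.

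**Figure D5:**
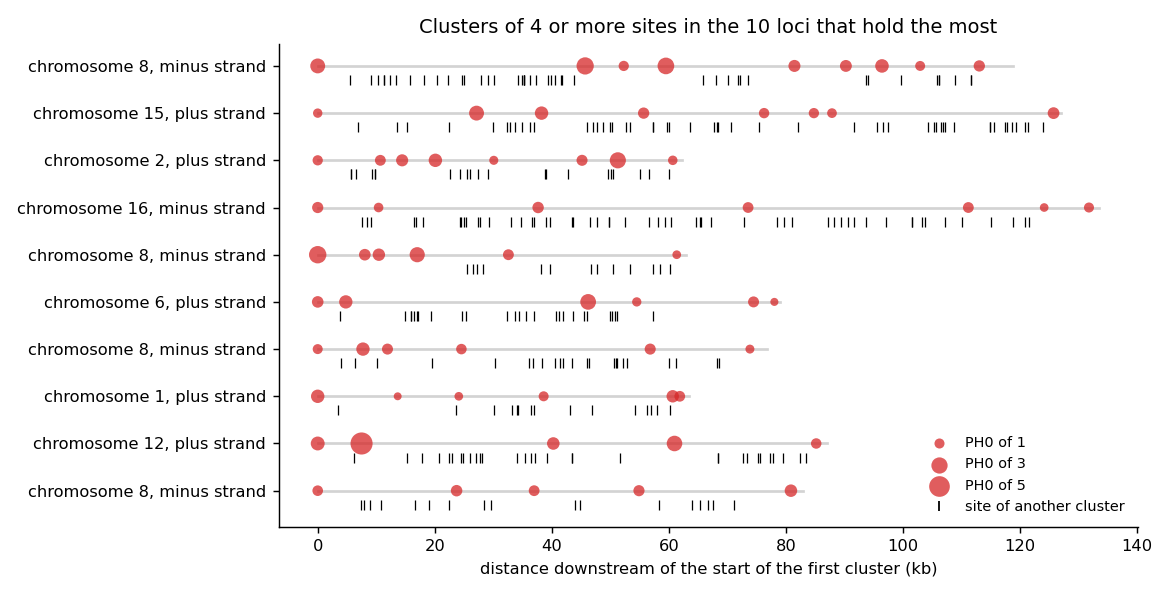
Members (red circles, area growing with PH0) in the 10 loci that hold the most, placed by their distance in kb downstream of the start of the first one; grey lines give the extent of the locus and black ticks the sites of clusters with 1 to 3 sites. The chromosome 8 locus at the top holds 9 members, and its first gap between members, of 41.9 kb, holds many sites of smaller clusters.

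Chromosome 8 had the highest share of members, and 4 of the 10 loci were on it. There, 84 of 2076 clusters were members (4.05%, 3.28 to 4.98), against 1012 of 38053 (2.66%, 2.50 to 2.83) on the other chromosomes. Without the 10 loci the shares were 2.93% (2.27 to 3.76) and 2.57% (2.41 to 2.73), with intervals that overlap. The chromosome was picked out for its share and the loci for their members, so all these intervals are only a description. The other 22 chromosomes ranged from 1.79% on chromosome 20 to 3.35% on chromosome 11.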

How the data were processed

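The authors deposited 1 list of crosslink sites of hnRNPM from iCLIP in HMLE cells, with no value per library. Positions are on GRCh37, per the submitters' processing notes. How reads were aligned, sites called, PCR duplicates removed and the 2 libraries pooled is not given in the sources used here. For each site, the deposited score, here called height, is a whole number equal to the value PH in its name. The name also holds the tag cluster, PH0 and P, deposited by the authors and not defined in the list. Reads that map to several places could add or remove sites in repeats, and how they were handled is not given either.

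Sites were grouped by the deposited cluster name and ordered along their strand. Gaps were measured from start to start, and spans from the first base of the first site to the last base of the last. The order of heights used only pairs that differ. Loci joined members of 1 strand at most 50 kb apart. Intervals are 95% Wilson intervals, or exact binomial intervals for medians in the alternatives. The clusters described were the 10 with the most sites and the 5 of longest span, shortest span, highest PH0 and lowest PH0, with the 10 loci of most members, and ties were broken by summed height. The members and these measures were chosen with earlier results of these data known, and the split of pairs by close groups after the values were seen. The measures were tested on simulated data. Work was done in Python 3.11.15 with scipy 1.17.1, pandas 2.3.3, numpy 2.4.6 and, for plots, matplotlib 3.10.9.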

Additional observations from a re-analysis of the deposited data

How the results depend on the processing

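Of 46 alternative values, 21 lay inside the 95% interval reported (counts within 1.5 times) and 25 did not. Of the 36 planned, 12 stayed. Of the 10 chosen after seeing the data, 9 stayed, among them all 8 without the cluster of highest PH0. Leaving out 1 of 1096 clusters could hardly move a count, median or share, so these 8 say little. The limit on sites moved most values by its construction. With clusters of 5 or more sites there were 435 clusters, a median span of 2237 nt, a median PH0 of 1.17, the tallest site first in 19.4% and last in 15.3%, and another such cluster nearby for 22.8%. With 3 or more there were 2965 clusters, 988 nt, a gap of 364 nt, a PH0 of 0.87, 31.0% first, 27.3% last and 60.7% nearby. With sites within 50 nt merged, the span was 1926.5 nt, the gap 470 nt, PH0 1.13, the tallest first in 21.7%, and 35.1% had another nearby. With sites of at least the median height, the span was 1679 nt, the gap 407 nt and PH0 1.19. Joining sites under 60 nt apart put the tallest last in 25.7%. The upstream site was the taller in 51.1% of all adjacent pairs of members and in 47.6% of those at least 60 nt apart. A distance of 20 kb gave another member nearby for 307 of the 1096 (28.0%), and 100 kb for 46.8%. No paired analysis was possible because both libraries are of 1 group and share 1 list, which also kept either replicate from being left out. Depth is unknown here, so a cluster of few sites cannot be told apart from one whose other sites were too low to be listed.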
